A study of Mus musculus with 10 samples.

Results

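Small nucleolar RNAs (snoRNAs) and small Cajal body RNAs (scaRNAs) were measured in white fat of the epididymal depot, a visceral depot of male mice. They were taken as every row of the raw count table whose gene name begins with Snora, Snord or Scarna and a digit and whose total reached at least 15 reads over the 10 libraries. The rule found 8 RNAs among 23930 amplicons, and 0 rows of these names lay under 15 reads; the lowest inside were Snora62 with 126 reads and Snord118 with 664. These were 3 H/ACA snoRNAs (Snora16a, Snora23 and Snora62), 3 C/D snoRNAs (Snord15a, Snord17 and Snord118) and 2 scaRNAs (Scarna6 and Scarna13). Total RNA came from 5 Srgn-/- and 5 Srgn+/+ male C57BL/6 mice aged 18 weeks, all kept for 8 weeks on a diet high in sucrose and fat. Srgn encodes serglycin, a proteoglycan stored in secretory granules, above all in blood-derived cells such as mast cells and cytotoxic lymphocytes. Each library is 1 animal, numbered within its genotype, and a number pairs no animals.

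Box C/D snoRNAs guide 2'-O-methylation, and box H/ACA snoRNAs guide pseudouridylation, mainly of ribosomal RNA in the nucleolus. ScaRNAs carry the same boxes but act in Cajal bodies on the small nuclear RNAs of the spliceosome. Most mammalian snoRNAs are not transcribed from a promoter of their own: they are cut out of introns of a host gene after splicing and are protected by a core of proteins. The Ion AmpliSeq mouse transcriptome kit used here reads 1 short amplicon per gene. Reads of a snoRNA, of the unspliced host transcript around it and, since no strand setting is stated for the counting, of an antisense gene cannot be told apart.

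In the GENCODE annotation of GRCm38, which is not the mm9 build named for the files and is used here for gene neighbours and sequences alone, 7 of the 8 RNAs lie on the same strand within a host gene. Snora16a (chromosome 4) lies in the noncoding gene Snhg12, where an exon of at least 1 annotated transcript overlaps it. Reads of such a spliced transcript cannot be told apart from those of Snora16a either. Snora23 (chromosome 7) lies in an intron of Ipo7, which encodes a nuclear import receptor, and the antisense gene 1600010M07Rik crosses it on the other strand. Snora62 (chromosome 9) lies in an intron of Rpsa and Snord15a (chromosome 7) in an intron of Rps3, both genes of the small ribosomal subunit. Snord17 (chromosome 2) lies in an intron of Snx5, a sorting nexin gene, and Scarna6 (chromosome 1) in an intron of Atg16l1, an autophagy gene. Scarna13 (chromosome 12) lies in an intron of the noncoding gene Snhg10. Snord118 (chromosome 11) has no host gene there.

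Printed here, 5' to 3' and as DNA letters from the GENCODE transcripts, are the 3 RNAs whose libraries did not overlap between the genotypes, and Scarna13, which also holds an annotated microRNA hairpin. Capitals mark ACA where it stands exactly 3 bases before the 3' end in H/ACA RNAs, and the first TGATGA (the core of box C) and the last CTGA (box D) in the C/D RNA.
Snora16a: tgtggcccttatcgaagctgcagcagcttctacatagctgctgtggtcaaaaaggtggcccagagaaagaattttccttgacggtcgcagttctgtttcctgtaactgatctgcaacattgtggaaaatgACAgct
Snora23: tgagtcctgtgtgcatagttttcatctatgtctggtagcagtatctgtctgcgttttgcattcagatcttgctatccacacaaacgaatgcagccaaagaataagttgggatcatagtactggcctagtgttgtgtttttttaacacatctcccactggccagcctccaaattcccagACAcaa
Snord15a: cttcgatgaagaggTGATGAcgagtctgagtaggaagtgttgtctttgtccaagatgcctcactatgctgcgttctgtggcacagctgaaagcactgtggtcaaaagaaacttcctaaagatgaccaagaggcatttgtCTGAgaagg
Scarna13: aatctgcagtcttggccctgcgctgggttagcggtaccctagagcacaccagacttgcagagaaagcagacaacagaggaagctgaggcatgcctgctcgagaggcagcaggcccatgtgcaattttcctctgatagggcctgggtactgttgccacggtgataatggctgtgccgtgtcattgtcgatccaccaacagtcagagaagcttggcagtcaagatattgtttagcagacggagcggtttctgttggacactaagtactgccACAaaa
The motifs were searched on the RNA strand alone. The ACA end was present in all 3 H/ACA snoRNAs and in Scarna13, and in 83.3% of the 42 GENCODE transcripts with Snora names. TGATGA together with CTGA was present in all 3 C/D snoRNAs, in Scarna6, and in 75.8% of the 99 transcripts with Snord names. Bases 209 to 273 of Scarna13 are the hairpin of Mir3069 in RefSeq (GRCm38.p6), so its mature microRNAs are cut from a stretch that Scarna13 also contains. Mir3069 has no value of its own here.

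Of the 8 RNAs, 6 had lower values in Srgn-/- fat, and none passed the test over all genes. That test was the edgeR quasi-likelihood test with Benjamini-Hochberg adjustment over 12719 genes, at a threshold of 0.05, and all 8 passed its filter on low counts. It called 0 of the 8 lower and 0 higher; 0.00786% of all genes tested were called lower (1 gene, Srgn) and 0% higher. At an unadjusted p under 0.05, 6 of the 8 were lower, against 6.06% of all genes tested, and 0 were higher, against 6.77%. The 5 Srgn-/- libraries all lay below the 5 Srgn+/+ libraries for 3 of the 8, against 1.38% of all genes tested, and 0 were separated in the other direction, against 1.39%. The DESeq2 Wald test called 2 of the 8 lower, Snord15a and Snora16a, against 0.849% of all genes tested, and 0 higher, against 0.928%. With limma-voom 0 of the 8 were called lower, against 0.00786%, and 0 higher, against 0%. The median log2 fold change was -0.44 over the 8 RNAs, against -0.0014 over all genes tested, whose quartiles lay at -0.16 and 0.17.

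**Figure D1:**
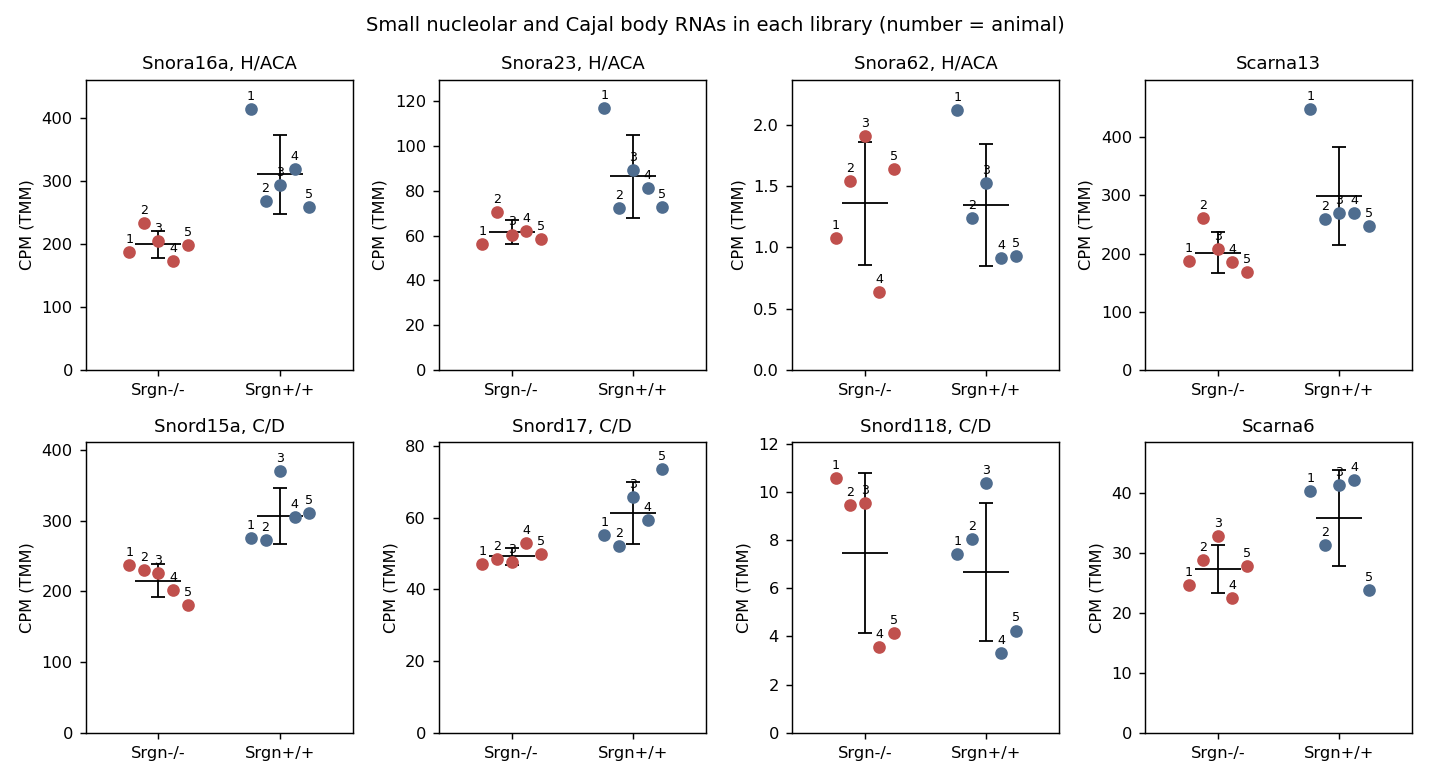
Level of each RNA in CPM (counts per megaread of the library, scaled with TMM factors, vertical axis from 0) in the 5 Srgn-/- libraries (red, left) and the 5 Srgn+/+ libraries (blue, right); small numbers name the animal, and the black bar and whiskers give the mean and SD. Snora16a, Snora23 and Snord15a do not overlap between the genotypes, while Snora62 and Snord118 do, Snord118 over nearly its whole range.

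Of the H/ACA class, Snora16a and Snora23 had lower values and did not overlap, while Snora62 was near the limit of detection. Snora16a, whose human counterpart guides pseudouridylation of ribosomal RNA, had 187, 233, 205, 174 and 198 CPM in Srgn-/- 1 to 5, against 415, 269, 294, 319.6 and 258 CPM in Srgn+/+ 1 to 5. The highest Srgn-/- library lay below the lowest Srgn+/+ library, and Srgn+/+ 1 was the highest of the 10. The means were 199.5 ± 22.1 CPM in Srgn-/- and 311 ± 62.6 CPM in Srgn+/+ (SD, n = 5 each), for which edgeR gave a log2 fold change of -0.64 (SE 0.134; adjusted p = 0.191, unadjusted p = 0.000422). DESeq2 gave Snora16a an adjusted p of 0.00551. Its level was 64.1% of that in Srgn+/+ fat. This log2 fold change was the farthest below 0 of the 8 on all libraries, but without Srgn+/+ 1 it was -0.52, against -0.55 for Snord15a.

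Snora23, also an H/ACA guide for ribosomal RNA, had 56.1, 70.3, 60.5, 62.3 and 58.4 CPM in Srgn-/- 1 to 5, against 117, 72.3, 89.1, 81.2 and 72.6 CPM in Srgn+/+ 1 to 5. The groups were separated by a narrow gap, since Srgn-/- 2 and Srgn+/+ 2 lay at 70.3 and 72.3 CPM, and with scaling by library totals alone they overlapped. The log2 fold change was -0.49 (SE 0.133; edgeR adjusted p = 0.214), and -0.36 without Srgn+/+ 1. Snora62, the E2 RNA, was read 11, 14, 16, 5 and 15 times in Srgn-/- 1 to 5 and 22, 13, 15, 8 and 7 times in Srgn+/+ 1 to 5. At means of 1.36 ± 0.502 CPM in Srgn-/- and 1.35 ± 0.499 CPM in Srgn+/+ (SD, n = 5 each), its log2 fold change was 0.0053 with a 95% interval of -0.82 to 0.83. That interval holds the values of all the other RNAs of the class, so at this depth a difference of their size was not detectable for Snora62.

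Of the C/D class, Snord15a and Snord17 had lower values in Srgn-/- fat and Snord118 did not. Snord15a, a U15 RNA, which guides methylation of 28S ribosomal RNA, had 238, 230.0, 225, 202 and 181 CPM in Srgn-/- 1 to 5, against 276, 272, 371, 305 and 310.3 CPM in Srgn+/+ 1 to 5. The groups did not overlap, and Srgn+/+ 3, not Srgn+/+ 1, was the highest library. The log2 fold change was -0.51 (SE 0.11; edgeR adjusted p = 0.191; DESeq2 adjusted p = 0.00472), a level of 70.1% of that in Srgn+/+ fat. Another U15 copy lies in the same host gene in mouse, and how specific the amplicon is was not tested.

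Snord17, a C/D guide for 28S ribosomal RNA, had 47.1, 48.5, 47.7, 52.8 and 49.8 CPM in Srgn-/- 1 to 5, against 55.1, 52.1, 65.7, 59.4 and 73.6 CPM in Srgn+/+ 1 to 5. Only Srgn-/- 4 reached into the Srgn+/+ range, just above Srgn+/+ 2. The spread was 4.62% of the mean (SD over mean) in Srgn-/- and 14.1% in Srgn+/+, and the log2 fold change was -0.31 (SE 0.102; edgeR adjusted p = 0.258).

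Snord118 (U8) acts in the cutting of the precursor of 5.8S and 28S ribosomal RNA, and mutations in its human gene cause a brain white matter disease. It had 10.6, 9.46, 9.53, 3.57 and 4.15 CPM in Srgn-/- 1 to 5, against 7.41, 8.03, 10.4, 3.32 and 4.25 CPM in Srgn+/+ 1 to 5. Within each genotype 3 libraries lay at 7.41 CPM or more and the other 2 at 4.25 CPM or less, with nothing between. These rest on 28 to 108 reads a library. The log2 fold change was 0.16 with a 95% interval of -0.66 to 0.97 (edgeR adjusted p = 0.888), which holds both no difference and the differences seen for Snord15a and Snord17.

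Both scaRNAs had lower values in Srgn-/- fat, with overlap. Scarna13, whose human counterpart U93 guides pseudouridines of spliceosomal RNAs, had 187, 260.4, 208, 185 and 168 CPM in Srgn-/- 1 to 5, against 447, 259, 269, 270.1 and 248 CPM in Srgn+/+ 1 to 5. Srgn-/- 2 lay above 2 Srgn+/+ libraries, and the other 4 Srgn-/- libraries lay below all Srgn+/+ libraries. Srgn+/+ 1 stood at 1.66 times the next highest library. The log2 fold change was -0.57 (SE 0.175; edgeR adjusted p = 0.247) and -0.37 without Srgn+/+ 1 (adjusted p = 0.178). Without Srgn+/+ 1 the remaining 4 Srgn+/+ libraries averaged 261 ± 10.5 CPM (SD).

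Scarna6, whose sequence carries C and D boxes, had 24.7, 28.8, 32.9, 22.5 and 27.9 CPM in Srgn-/- 1 to 5, against 40.3, 31.3, 41.4, 42.2 and 23.9 CPM in Srgn+/+ 1 to 5. Srgn+/+ 5 lay below 4 of the 5 Srgn-/- libraries, while 3 Srgn+/+ libraries lay above all of them. The log2 fold change was -0.39 (SE 0.163; edgeR adjusted p = 0.353), with an unadjusted p of 0.033.

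**Figure D2:**
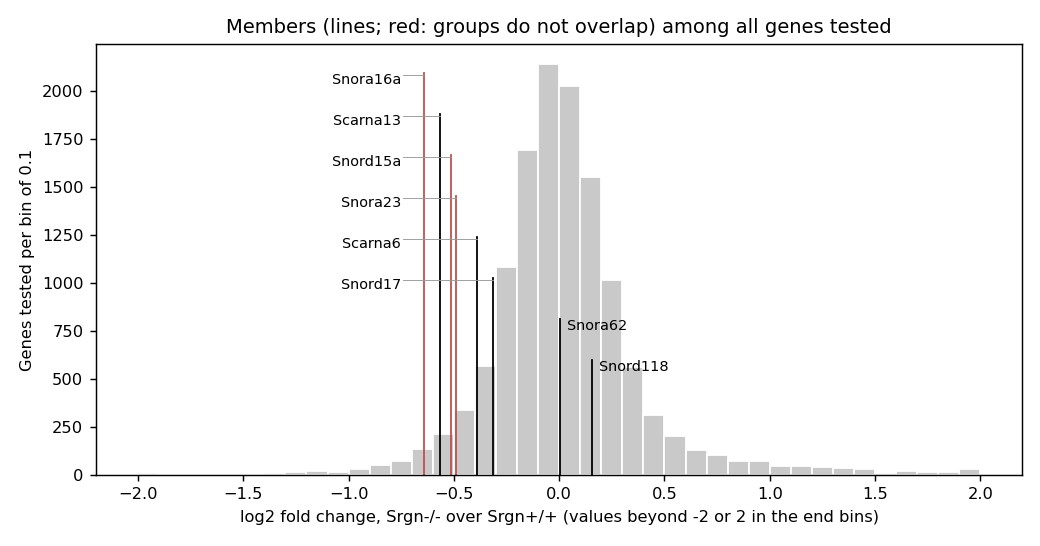
Number of genes tested (vertical axis, bins of 0.1) by log2 fold change of Srgn-/- over Srgn+/+ (horizontal axis), with the 8 RNAs as vertical lines whose heights carry no value; red lines are the 3 whose groups do not overlap. Of the 8, 6 lie between -0.64 and -0.31, below the lower quartile of all genes, and Snora62 and Snord118 lie at 0.0053 and 0.16.

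By class, the median log2 fold change was -0.49 for the 3 H/ACA snoRNAs, -0.31 for the 3 C/D snoRNAs and -0.48 for the 2 scaRNAs, and differences between classes were not tested. The 8 RNAs together took 0.0673% to 0.0933% of all reads in Srgn-/- libraries and 0.0939% to 0.138% in Srgn+/+ libraries. Their summed level was 763 ± 78.1 CPM in Srgn-/- and 1108 ± 157 CPM in Srgn+/+ (SD, n = 5 each). Snord15a, Snora16a and Scarna13 supplied 82% of these reads, so the sum mostly describes these 3. The highest summed level of the Srgn-/- libraries was 882 CPM, in Srgn-/- 2, and the lowest of the Srgn+/+ libraries was 965 CPM, in Srgn+/+ 2.

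The host genes were then set beside the RNAs they hold. A ratio between amplicons has no meaning of its own, and only its difference between the genotypes is described. Of the 7 hosts, 5 had values, and none passed the edgeR test. Ipo7, host of Snora23, had 57 ± 4.22 CPM in Srgn-/- and 52.8 ± 6.45 CPM in Srgn+/+ (SD, n = 5 each; log2 fold change 0.11, SE 0.102), while Snora23 had -0.49. Without Srgn+/+ 1, the highest library for Snora23, the values were 0.043 for Ipo7 and -0.36 for Snora23. The log2 ratio of Snora23 to Ipo7 was 0.11 ± 0.145 in Srgn-/- and 0.7 ± 0.441 in Srgn+/+ (SD, n = 5 each). It did not overlap between the groups, unlike the ratios of the other RNAs with a host value. Snora23 alone did not overlap either, and how often ratios of other gene pairs are separated was not tested. The gap of the ratio was narrow, from 0.261 in the highest Srgn-/- library to 0.304 in the lowest Srgn+/+ library. Srgn+/+ 1 had the highest ratio, 1.45, and the lowest Ipo7 level, 42.8 CPM. Atg16l1, host of Scarna6, had 39.3 ± 4.45 CPM in Srgn-/- and 36.1 ± 2.43 CPM in Srgn+/+ (log2 fold change 0.12, SE 0.0985, and 0.068 without Srgn-/- 2), and the ratio of Scarna6 to it overlapped.

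Rps3, host of Snord15a, differed in the same direction as its snoRNA, at 820 ± 94 CPM in Srgn-/- and 961 ± 106 CPM in Srgn+/+ (log2 fold change -0.23, SE 0.113; edgeR adjusted p = 0.414). The log2 ratio of Snord15a to Rps3 was -1.93 ± 0.214 in Srgn-/- and -1.65 ± 0.167 in Srgn+/+ and overlapped. Snx5, host of Snord17, had a log2 fold change of -0.36 (SE 0.243), beside -0.31 for Snord17; it was -0.18 without Srgn+/+ 5 and -0.51 without Srgn-/- 1. The log2 ratio of Snord17 to Snx5 was -1.46 ± 0.418 in Srgn-/- and -1.52 ± 0.322 in Srgn+/+. Snhg10, host of Scarna13, averaged 4.03 ± 1.77 CPM in Srgn-/- and 3.86 ± 1.52 CPM in Srgn+/+ (log2 fold change 0.062, SE 0.352), too few reads for a narrow estimate. Srgn+/+ 1, the highest library for Scarna13, was also the highest for Snhg10, at 6.45 CPM. Snhg12 and Rpsa were not analysed here. Whether a host and its RNA differed by unequal amounts was not tested.

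**Figure D3:**
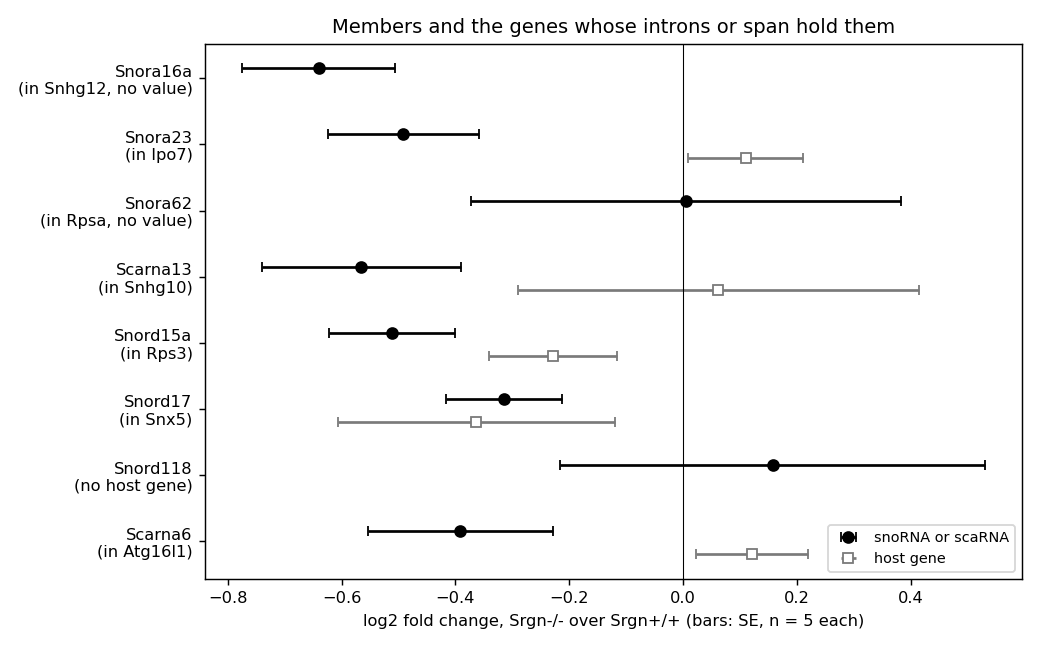
Log2 fold change of Srgn-/- over Srgn+/+ (horizontal axis; bars give the SE, n = 5 libraries each) for each RNA (black circles) and its host gene where it had a value (open squares). Snora23 and Scarna6 lie below 0 while their hosts Ipo7 and Atg16l1 lie at 0.11 and 0.12, and Snord17 and its host Snx5 lie at -0.31 and -0.36.

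The proteins that bind, assemble and trim these RNAs were read from lists of known factors, and none of their genes passed the edgeR test. The 4 core proteins of H/ACA particles had a median log2 fold change of 0.094, with 3 higher and 1 lower in value. Dkc1, the pseudouridine synthase dyskerin, had 23.8 ± 2.61 CPM in Srgn-/- and 25.3 ± 1.62 CPM in Srgn+/+ (SD, n = 5 each). Nop10 had 244 ± 9.85 and Nhp2 71.9 ± 12.4 CPM in Srgn-/-, against 221 ± 9.7 and 59 ± 11.9 CPM in Srgn+/+, with edgeR adjusted p = 0.433 and 0.476. The 3 H/ACA assembly genes had lower values, with a median of -0.23, among them Shq1, a chaperone of dyskerin (log2 fold change -0.38, SE 0.18), Tcof1 (-0.18) and Nolc1 (-0.23).

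Of the 5 listed C/D core names, Nop56 (log2 fold change 0.027) and Nop58 (0.073) had values. The 7 C/D assembly genes had a median of 0.033, with Nufip1 at -0.22, Znhit6 at -0.17 and Zcchc4 at 0.29. Of the 10 Cajal body genes 7 had lower values (median -0.13), among them Coil, the Cajal body scaffold coilin, at 7.84 ± 0.972 CPM in Srgn-/- and 9 ± 1.06 CPM in Srgn+/+ (log2 fold change -0.2, SE 0.152), and Usp42 at -0.23, while Zc3h8 was at 0.37. The 10 genes of trimming and decay had a median of -0.015, with the nuclear exonuclease Xrn2 at 0.24, the exosome nuclease Dis3 at -0.22 and Toe1 at 0.12. In these 6 lists 0 genes had an unadjusted p under 0.05 in either direction, against 6.06% lower and 6.77% higher over all genes tested.

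Among 26 genes of RNA polymerase I and ribosomal RNA processing, 0 passed, 1 was higher and 3 were lower at an unadjusted p under 0.05, and 19 had lower values (median log2 fold change -0.1). Over all genes tested, 6.77% were higher and 6.06% lower at that p, and 50.3% had lower values. Ncl, the nucleolar protein nucleolin, had 136, 139.7, 136, 116 and 129.9 CPM in Srgn-/- 1 to 5, against 75.6, 93.6, 119, 95.5 and 60.1 CPM in Srgn+/+ 1 to 5. Srgn+/+ 3 lay above Srgn-/- 4, and the other libraries were separated (log2 fold change 0.57, SE 0.153; edgeR adjusted p = 0.214; DESeq2 adjusted p = 0.0418). Rrn3, a polymerase I initiation factor, was at -0.28 (SE 0.11) and Pes1, of large-subunit maturation, at -0.26 (SE 0.111). Of the 15 noncoding snoRNA host genes tested, 0 passed and 11 had higher values (median 0.062). Snhg6 had 30.7 ± 3.17 CPM in Srgn-/- and 24 ± 1.27 CPM in Srgn+/+ without overlap (log2 fold change 0.36, SE 0.0981; edgeR adjusted p = 0.216), and Rian was at 0.29. Snhg14 was at 0.85 (SE 0.435, edgeR adjusted p = 0.434) with overlap, on 4 to 27 reads a library.

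**Figure D4:**
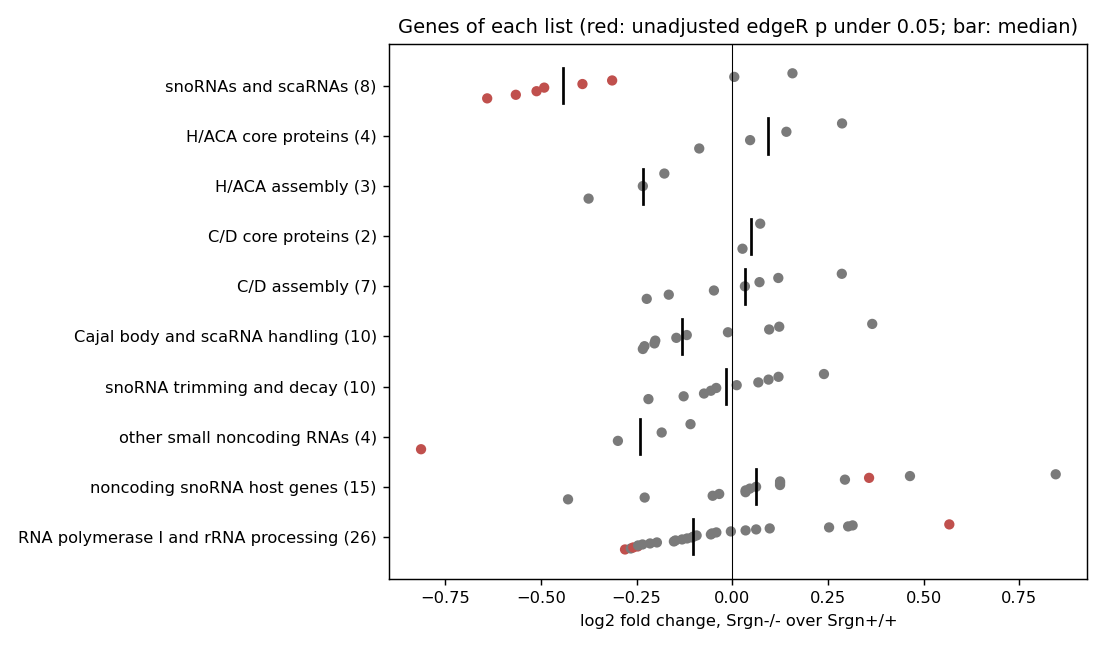
Log2 fold change of Srgn-/- over Srgn+/+ (horizontal axis) of every tested gene in each list (1 point a gene; number tested in brackets), red where the unadjusted edgeR p was under 0.05, with the list median as a black bar. The snoRNAs and scaRNAs have their median at -0.44, while the medians of the other lists lie between -0.24 and 0.094.

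Another 4 small noncoding RNAs had values, all lower in Srgn-/- fat, against 50.3% of all genes tested, and none passed in edgeR. Of the 4, only 1 (Rmrp) had an unadjusted edgeR p under 0.05, against 6.06% lower over all genes tested. Rmrp, the RNA of RNase MRP, which cuts precursor ribosomal RNA, had 3895, 3281, 3275, 3502 and 3586 CPM in Srgn-/- 1 to 5, against 7183, 5795, 6158, 6890.3 and 4798 CPM in Srgn+/+ 1 to 5, without overlap (log2 fold change -0.81, SE 0.127; edgeR adjusted p = 0.109; DESeq2 adjusted p = 4.09e-08). Under 2 alternatives edgeR called Rmrp lower, namely without Srgn+/+ 5 (log2 fold change -0.89, adjusted p = 0.0389) and with no filter on low counts (-0.82, adjusted p = 0.0192). Its largest edgeR adjusted p, 0.999, came without the 3 libraries with epididymis RNA. Rpph1, the RNA of RNase P, was at -0.18 (SE 0.109) with overlap. Terc, the telomerase RNA, which ends in an H/ACA domain, was at -0.3 (SE 0.326) with overlap, on 10 to 34 reads a library.

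The libraries held 7824764 to 10757779 reads. Srgn had 0 to 1.31 CPM in Srgn-/- libraries and 74.7 to 133 CPM in Srgn+/+ libraries (log2 fold change -8.18; edgeR adjusted p = 9.44e-05). The summed level of 8 adipocyte markers, scaled like the other marker sums by library totals alone, was 32107 to 40145 CPM in Srgn-/- and 31795 to 48837 CPM in Srgn+/+. Markers of immune cells also had lower values in Srgn-/- fat, but none of them passed the edgeR test. At an unadjusted edgeR p under 0.05, 7 of 8 T-cell, 3 of 5 B-cell and 3 of 7 macrophage markers were lower, against 6.06% of all genes tested. Lower without overlap were 1 T-cell, 2 B-cell and 0 macrophage markers, against 1.38% of all genes tested. Of all genes tested, 50.3% had lower values. The sum of 8 T-cell markers was 16.8 to 24.4 CPM in Srgn-/- and 25.1 to 71.5 CPM in Srgn+/+, with 8 of 8 tested genes lower in value. The sum of 5 B-cell markers was 18.2 to 29.4 CPM in Srgn-/- and 32 to 145 CPM in Srgn+/+, with 5 of 5 lower. The sum of 8 macrophage markers was 1658 to 3082 CPM in Srgn-/- and 1573 to 5344 CPM in Srgn+/+, with 7 of 7 tested genes lower. None of these markers was at 0 reads, and their part in the differences of the snoRNAs was not tested; fewer cells of a type and less RNA per cell cannot be told apart in whole tissue.

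Epididymis RNA was high in Srgn-/- 3, Srgn-/- 5 and Srgn+/+ 4. The sum of 15 epididymis markers was 1.35 to 6877 CPM in Srgn-/- and 0.186 to 737 CPM in Srgn+/+, with Defb30 at 0 reads. Without those 3 libraries the same 3 RNAs did not overlap. Groups separated on all libraries stay separated in any subset, apart from changes of scaling, so this outcome was nearly fixed. Of all genes tested in that smaller fit, 2.8% did not overlap and were lower in Srgn-/-. The log2 fold changes were -0.64 for Snora16a, -0.46 for Snord15a and -0.48 for Snora23 (edgeR adjusted p = 0.999 each). In that fit 3 of the 8 were lower at an unadjusted p under 0.05, against 2.04% of all genes tested. The fit kept Srgn+/+ 1, whose epididymis marker sum was 22.1 CPM, against 2.13 CPM or less in the other libraries kept.

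**Figure D5:**
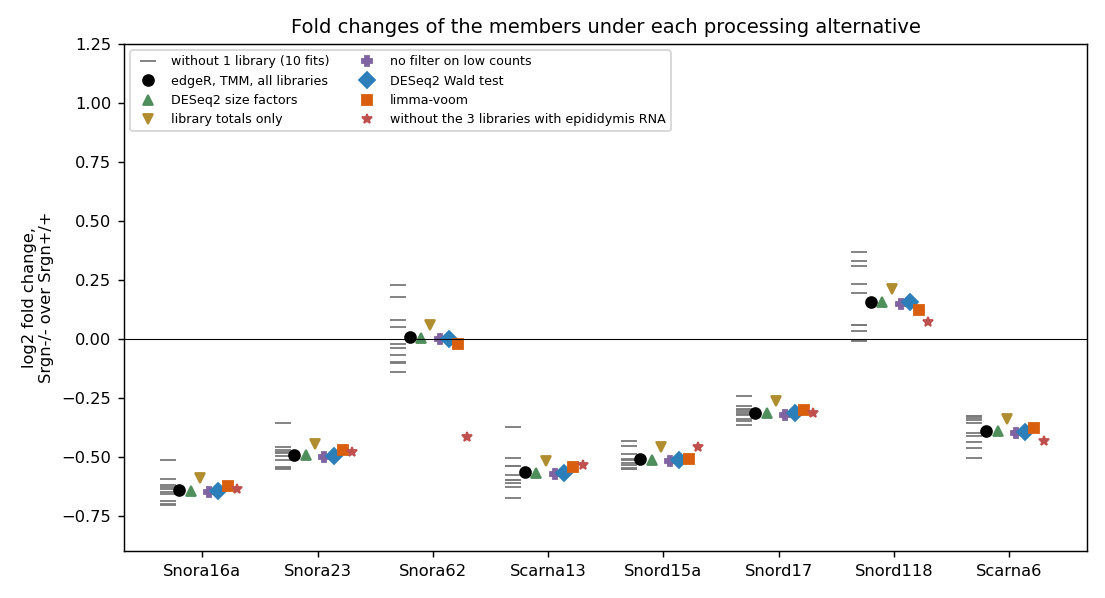
Log2 fold change of Srgn-/- over Srgn+/+ (vertical axis) of each RNA under the edgeR fit on all libraries (black circle), 6 processing alternatives (coloured marks) and the 10 fits that leave out 1 library (grey dashes). The 6 RNAs with lower values stay below 0 in every fit, while Snora62 ranges from -0.42 to 0.23 and Snord118 from -0.011 to 0.37.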

How the data were processed

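Total RNA of 10 mice, 1 library each, was read with the Ion AmpliSeq mouse transcriptome kit on an Ion S5 XL sequencer, per the labels' protocols. The submitters' processing notes name genome build mm9; which aligner and counter were run is not given in the sources used here. Raw counts deposited by the authors are whole reads per amplicon; a table they scaled for depth was not used. Counting without molecular identifiers means that depth limits cover counting error only. Because amplicons differ in efficiency, levels were not compared between RNAs.

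Counts were analysed in R 4.3.3 with edgeR 4.0.16. filterByExpr (minimum count 10, minimum total count 15) kept 12719 genes, and 11211 were removed. Levels are counts per megaread (CPM). Libraries were scaled by TMM factors, and Srgn-/- was tested against Srgn+/+ by the two-sided quasi-likelihood test (robust) with no covariate. Standard errors are the fold change divided by the square root of F, and 95% intervals use the t distribution with its degrees of freedom. Alternatives were DESeq2 1.42.0, limma 3.58.1 (voom), other scalings, no filter, and fits without libraries. The fits were tested on simulated data. Named genes were all 8 RNAs, their hosts, and in each list the 3 genes with the smallest p. The RNAs, the lists and the set of libraries with epididymis RNA were chosen with earlier results of these data known.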

Additional observations from a re-analysis of the deposited data

Results flagged for a closer look

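In 88 groups of 5 libraries checked, 5 values stood far from the others of their group, where chance gives about 1 in 20. Scarna13 was at 447 CPM in Srgn+/+ 1, with the next Srgn+/+ library at 270.1 CPM, and the sum of both scaRNAs was at 487 CPM in that library, with the next at 312 CPM. The same library was low for Rps3, the host of Snord15a, at 779 CPM (next 976 CPM), and for Nhp2, an H/ACA core protein gene, at 38.4 CPM (next 60.3 CPM). Its macrophage marker sum, 1573 CPM, was the lowest of the 10 libraries, and its adipocyte marker sum, 48837 CPM, the highest. Their part in these values was not tested. Srgn was at 1.31 CPM in Srgn-/- 5, above 0.294 CPM in the next Srgn-/- library.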

How the results depend on the processing

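Snora16a, Snord15a, Snora23, Scarna13, Snord17 and Scarna6 kept a lower value in Srgn-/- fat under all 16 alternatives. The class medians moved by less than the SD between libraries of a genotype, on the log2 scale 0.244 for H/ACA, 0.177 for C/D and 0.252 for scaRNAs. That limit is wide, since leaving out 1 library could hardly move a median so far. Without 1 library at a time the medians were -0.55 to -0.36 for H/ACA, -0.37 to -0.24 for C/D and -0.57 to -0.36 for scaRNAs. The DESeq2 Wald test called 2 of the 8 lower, and edgeR 0 in every fit, also with DESeq2 size factors. Why the tests differed was not tested. DESeq2 called 226 genes in all, and edgeR 1. Without the 3 libraries with epididymis RNA, 3 rather than 6 of the 8 were lower at an unadjusted p under 0.05, in a fit of fewer animals. Without 1 library at a time it was 5 or 6 of the 8, against 4.29% to 8.92% of all genes tested. The groups did not overlap for 3 or 4, all lower in Srgn-/-, against 1.63% to 3.17% lower without overlap over all genes tested. Leaving out a library cannot make separated groups overlap except through changes of scaling, so that count could hardly fall.

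Directions near 0 turned. Snora62 was at -0.0011 with no filter, -0.024 with limma-voom and -0.42 without the epididymis libraries, and at -0.14 to 0.23 without 1 library. Without the epididymis libraries Snhg10 was at -0.18 and Nolc1 at 0.071. Without 1 library at a time Snord118 lay at -0.011 to 0.37, Snhg10 at -0.14 to 0.33, Nolc1 at -0.49 to 0.092, Nop58 at -0.018 to 0.18 and Nop56 at -0.088 to 0.11. For these turns the cause was not tested. No paired analysis was possible because the labels number no animal of 1 genotype with an animal of the other. Of the 8 RNAs, Snora62 (5 to 22 reads a library) and Snord118 (28 to 108) had the fewest reads.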

Other observations

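The 3 C/D snoRNAs on the panel are long for their family. They have 135 bases (Snord118), 148 (Snord15a) and 238 (Snord17) in GENCODE, where the median over 98 Snord symbols is 84.5 bases and 4 (4.08%) have at least 135. The 3 H/ACA snoRNAs, at 136 to 184 bases, lie nearer to the median of 132.5 bases over 40 Snora symbols. The values above therefore describe few snoRNAs, and of the C/D class only long ones. The listed groups of C/D snoRNAs hosted by Rpl13a and of imprinted C/D snoRNAs were not analysed here, and of the listed snoRNAs that act in cutting precursor ribosomal RNA Snord118 alone was.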
